A study of Mus musculus with 6 samples.

Results

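Macroh2a1 and Macroh2a2 are the mouse genes of the macroH2A histone variants, and both were present among the 18122 gene columns of a count table from cultured lung ILC2s. They were chosen by name, with the large difference of Macroh2a1 between genotypes already known, so their levels are a description and carry no test. Both passed the filter on low counts that left 13691 genes to test. Group 2 innate lymphoid cells (ILC2s) are lymphocytes without antigen receptors that release type 2 cytokines. The cells were sorted from mouse lung and cultured, and their messenger RNA was turned into amplified cDNA from 10 pg of RNA per sample. The WT group held 3 libraries from mice given as BALB/C BYJ, and the ICOS KO group held 3 libraries from mice given as C.129S4-Icostm1Shr/J, whose name marks a targeted change in Icos (this gene encodes the inducible co-stimulator, a receptor). The sources used here give no age, sex or treatment, and do not say whether the 3 libraries per genotype stem from separate mice, pooled mice or separate cultures. The spread between libraries may therefore be technical. WT and ICOS KO mice carry different strain names, and a difference of strain DNA cannot be told apart from the Icos allele. The design text speaks of duplicates, and all 3 libraries per genotype were used.

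Library totals ranged from 13738062 to 18736474 estimated counts. Icos itself stood at 434 to 502 CPM (counts scaled to a common library size by TMM factors) in WT and at 140 to 170 CPM in ICOS KO (adjusted p from edgeR 3.59e-06), so reads of the gene remained in the ICOS KO libraries. The ILC2 genes Gata3, Il1rl1, Rora, Il7r, Klrg1, Il5, Il13, Il2ra, Thy1 and Areg were all detected, with a summed level of 9315 to 10409 CPM in WT and 9705 to 10471 CPM in ICOS KO, most of it from Il5. Of these 10 genes, edgeR called 3 higher (Areg, Klrg1 and Il1rl1) and 1 lower (Rora) at an adjusted p under 0.05. Over all 13691 tested genes it called 1.34% higher and 2.13% lower in ICOS KO. Il1rl1 lay near the threshold (adjusted p from edgeR 0.0444).

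A nucleosome wraps DNA around core histones, and most H2A is made from replication-dependent genes while cells copy their DNA. The macroH2A proteins are H2A variants that carry a large globular macrodomain behind the histone part, which makes them the bulkiest of the H2A family. They are known for their enrichment on the inactive X chromosome, on Polycomb-marked and other silent chromatin and in the nuclear foci of senescent cells, and they can also hold some genes in an active state. Macroh2a1 yields 2 protein forms by a choice between alternative exons in the macrodomain: macroH2A1.1, which binds ADP-ribose, and macroH2A1.2, which does not. Macroh2a2 encodes macroH2A2, a close relative without this choice.

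Macroh2a1 (ENSMUSG00000015937.15) lies on the minus strand of chromosome 13, from 56073619 to 56136361 (GRCm38, GENCODE M21, where it has the older symbol H2afy). Its 2 protein-coding transcripts differ at exon 6 of 9. Both versions are shown because the deposited value is a single count for the whole gene and adds the forms together. The macroH2A1.2 form uses an exon of 100 bases at chr13:56089758-56089857 and the macroH2A1.1 form an exon of 91 bases at chr13:56088252-56088342, both fully coding and read from GENCODE transcripts on the minus strand, 5′ to 3′.
macroH2A1.2 exon: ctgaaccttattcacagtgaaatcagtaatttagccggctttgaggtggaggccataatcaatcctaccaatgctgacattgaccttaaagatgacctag
macroH2A1.1 exon: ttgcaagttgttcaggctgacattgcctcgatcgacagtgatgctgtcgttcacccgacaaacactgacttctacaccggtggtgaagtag
The exons had 52.7% identical bases where they aligned, with 43 mismatched and 9 unpaired bases, and the whole coding sequences of the forms differed by the same 43 and 9. Reads across them could separate the forms, but gene counts cannot, so no value says which form was present.

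Macroh2a2 (ENSMUSG00000020086.6) lies on the minus strand of chromosome 10, from 61738665 to 61784147. The coding sequences of Macroh2a1 (macroH2A1.2 form) and Macroh2a2 are both 1116 bases long and had 70.7% identical bases where they aligned. Their longest identical stretch bears on whether reads could be assigned to the wrong gene of the pair, and it was 16 bases.
longest shared stretch: gacaaatgtgaagaac
The protein-coding transcripts of the pair shared no stretch of 50 identical bases. On the same strand, Macroh2a2 shared such stretches with the processed pseudogene Macroh2a3 (older symbol H2afy3), over 191 bases. With the noncoding RNA gene Pvt1, Macroh2a2 shared such stretches on the opposite strand, over 93 bases. On the opposite strand, Macroh2a1 overlaps the antisense gene Gm47071 at its 3′ end and Macroh2a2 overlaps the 3′ end of Aifm2, and without a stated strand setting reads from these overlaps cannot be assigned with certainty.

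Macroh2a1 was 10.5-fold higher in ICOS KO than in WT ILC2s. It stood at 36.6, 38.9 and 38.8 CPM in WT replicates 1, 2 and 3, from 698.4, 739.8 and 591.6 estimated counts. It stood at 382, 406 and 409 CPM in ICOS KO replicates 1, 2 and 3, from 5912.3, 5407.9 and 5510.4 estimated counts. The 3 WT libraries lay within 1.06-fold of each other and the 3 ICOS KO libraries within 1.07-fold, and the lowest ICOS KO library was 9.81 times the highest WT library. Over 3 libraries each, WT averaged 38.1 ± 1.31 CPM (SD, n = 3) and ICOS KO 399 ± 15.01 CPM (SD, n = 3), and the edgeR fit gave a log2 difference of 3.39 ± 0.10 (SE). In bulk samples like these, more cells with the transcript and more transcript per cell cannot be told apart.

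**Figure D1:**
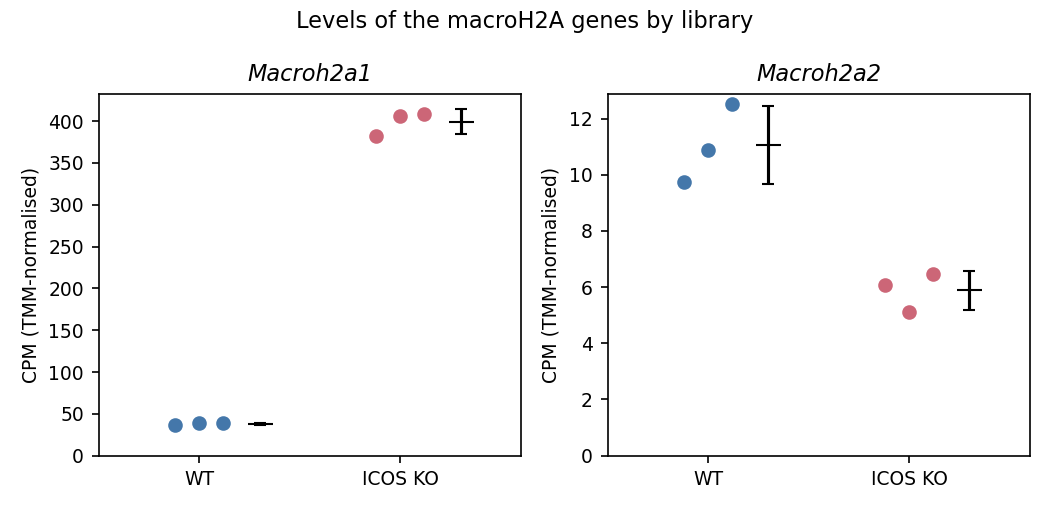
Normalised level (CPM, linear axes from 0, a separate scale for each gene) of Macroh2a1 and Macroh2a2 in each library; points are libraries and the bar beside them is the group mean ± SD (n = 3). Macroh2a1 sits near 38.1 CPM in WT and 399 CPM in ICOS KO, while Macroh2a2 is lower in every ICOS KO library than in any WT library.

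Macroh2a2 went the other way. It stood at 9.75, 10.9 and 12.5 CPM in WT replicates 1, 2 and 3, from 186.5, 207.3 and 191.0 estimated counts. It stood at 6.07, 5.11 and 6.46 CPM in ICOS KO replicates 1, 2 and 3, from 94.0, 68.0 and 87.0 estimated counts. Every ICOS KO library was below every WT library, with the lowest WT value 1.51 times the highest ICOS KO value. WT averaged 11.1 ± 1.39 CPM (SD, n = 3) and ICOS KO 5.88 ± 0.69 CPM (SD, n = 3), and the log2 difference was -0.91 ± 0.23 (SE). Both genes thus had groups that did not overlap. So had 24.4% of the 13691 tested genes (11.9% higher and 12.5% lower in ICOS KO), and since the members were chosen with this contrast in view, nothing is read from that share.

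The Macroh2a1 difference was near the top of the table. Among the 10067 tested genes that reached 5 CPM in at least 1 group, 5 had a larger positive log2 fold change, and Macroh2a1 ranked sixth by the gap between the lowest library of the higher group and the highest library of the lower group. The log2 fold change of Macroh2a2 was exceeded downward by 586 genes, or 4.28% of those tested. These ranks describe the choice of the gene and are no test of it.

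The spread of Macroh2a1 between replicates was small beside the gap between genotypes. Its coefficient of variation was 3.43% in WT, where read counting alone gives 3.84%, and 3.76% in ICOS KO, where counting alone gives 1.34%. Of the 2509 genes within 1.5-fold of its WT level, the median coefficient of variation was 9.54%, and 8.89% of them varied less than Macroh2a1. In ICOS KO the median of the 505 genes near its level was 9.51%, and 12.9% of them varied less. Macroh2a2 varied by 12.6% in WT and 11.8% in ICOS KO, against 7.16% and 11.0% from counting alone. Counting errors assume that reads are independent, which amplified cDNA without molecular identifiers does not guarantee.

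The balance within the pair was compared on a per-length scale, as CPM per kilobase of the longest protein-coding transcript (2046 bases for Macroh2a1 and 2175 bases for Macroh2a2). Macroh2a1 made up 80.0%, 79.2% and 76.7% of the summed macroH2A level in WT replicates 1, 2 and 3. In ICOS KO it made up 98.5%, 98.8% and 98.5%. The ratio of Macroh2a1 to Macroh2a2 was 3.69 ± 0.36 in WT and 72.9 ± 10.1 in ICOS KO (SD, n = 3 each). The summed level of both genes was 23.7 ± 1.21 in WT and 198 ± 7.29 CPM per kilobase in ICOS KO (SD, n = 3 each).

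On the same scale the pair was set beside 11 other genes of core histone variants and linker histones. In WT, Macroh2a1 ranked 9 of these 13 genes at 18.6 ± 0.64 CPM per kilobase (SD, n = 3), below H2az2 (84.5 ± 5.15) and above Macroh2a2 (5.08 ± 0.64), and neither neighbour in the order overlapped it. Macroh2a2 in WT (4.48 to 5.76 CPM per kilobase) overlapped the next gene below, H2bu2 (2.99 to 4.71). In ICOS KO, Macroh2a1 ranked 3 at 195 ± 7.34 CPM per kilobase. Above it stood H2az1, the main gene of H2A.Z, a variant of promoters and enhancers, at 2001 ± 262 CPM per kilobase, and H3f3b, a gene of the replacement histone H3.3, at 606 ± 56.7. Just below it stood H2ax, the variant phosphorylated at DNA breaks, at 181 ± 13.5 CPM per kilobase, and its libraries overlapped those of Macroh2a1 (165 to 189 against 187 to 200). The highest library of H2aj, at 187.03 CPM per kilobase, also lay within the range of Macroh2a1. Macroh2a2 moved from rank 10 to rank 12, with 2.703 ± 0.32 CPM per kilobase in ICOS KO, between H2aw (3.47 ± 0.32) and H1f10, which did not pass the filter.

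**Figure D2:**
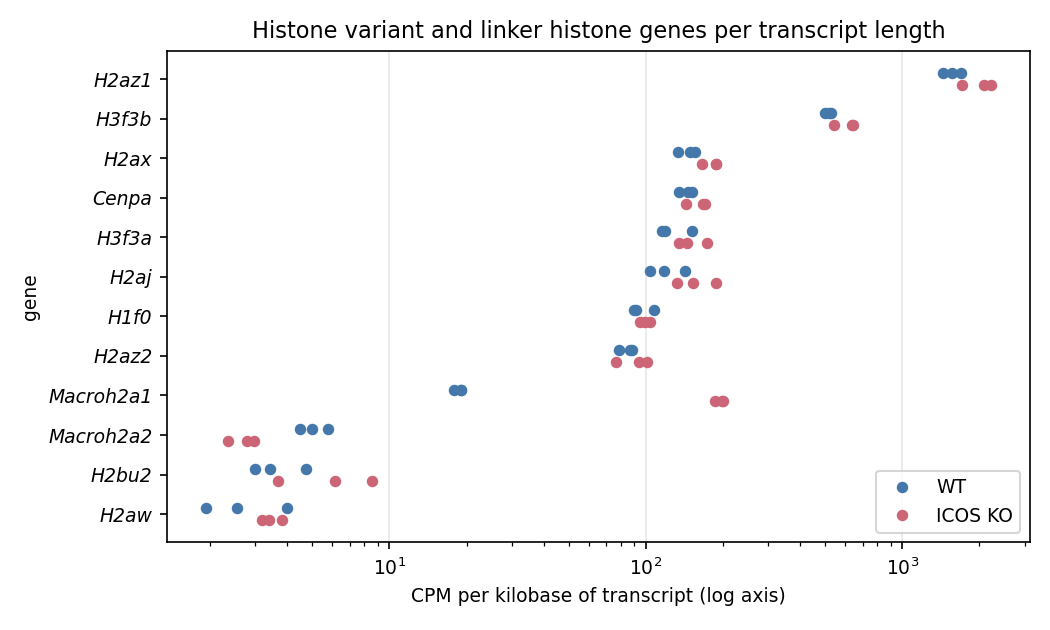
Level per transcript length (CPM per kilobase, log axis) of the macroH2A genes and 10 tested genes of histone variants and linker histones, with 1 point per library and genotypes by colour; H1f10, which did not pass the filter, is not drawn. Macroh2a1 moves from 18.6 to 195 CPM per kilobase, into the range of H2ax, while Macroh2a2 lies at 5.08 in WT and 2.703 in ICOS KO.

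The genes around the macroH2A genes in function were then examined in edgeR's quasi-likelihood test across all 13691 genes, ICOS KO against WT, calling genes at a Benjamini-Hochberg adjusted p under 0.05. This called 475 genes, or 3.47% of those tested, 183 higher (1.34%) and 292 lower (2.13%) in ICOS KO. The share of higher genes among calls was 38.5%. It was 27.0% when only library totals were used for scaling, and 59.6% after each library's trend with length and GC content of transcripts had been taken out. Of 123 tested genes in 6 chromatin lists, 1 rose and 2 fell, or 2.44%, a share near the background. Other rules called other shares of all genes: 20.0% had an unadjusted p under 0.05, DESeq2 called 6.79% (3.03% higher in ICOS KO), limma voom 3.09%, and edgeR without ICOS KO replicate 1 called 8.89%.

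Of 10 tested genes of other histone variants and linker histones, edgeR called none. All 10 had positive log2 fold changes, from 0.05 to 0.72 with a median of 0.27, where 49.6% of all tested genes were positive and their median was -0.00. Of the 10, 4 had an unadjusted p under 0.05 (20.0% of all genes), DESeq2 called 1 (6.79% of all) and limma voom none. Without ICOS KO replicate 1, edgeR called 4 of the 10 (8.89% of all). H2az1 stood at 1673 ± 130 and 2139 ± 280 CPM (SD of 3 libraries each; adjusted p from edgeR 0.0902), H2ax at 202 ± 15.5 and 250.2 ± 18.6 CPM (adjusted p from edgeR 0.125) and H3f3b at 1299 ± 35.2 and 1523 ± 142 CPM (adjusted p from edgeR 0.188). H2az1 was called higher by DESeq2 (adjusted p = 0.0375) and without ICOS KO replicate 1 (0.0111), and without WT replicate 1 its adjusted p was 0.352, the highest over the alternatives. Its log2 fold change went from 0.35 to 0.18 on removing the length and GC trend. With library totals alone, 9 of the 10 were positive and the median was 0.20.

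Of the replication-dependent histone genes 53 were tested, and 48 had positive log2 fold changes, with a median of 0.52, and edgeR called none of them. At an unadjusted p under 0.05 there were 10 of 53, a share near the 20.0% of all tested genes. DESeq2 called 1, where it called 6.79% of all genes, and limma voom none. Hist1h2ao, an H2A gene with near-identical copies, stood at 52.2 ± 3.81 and 79.2 ± 19.6 CPM (SD of 3 libraries each; adjusted p from edgeR 0.0535). It was called higher with upper-quartile or RLE scaling, by DESeq2, with the filter at 5 CPM and without ICOS KO replicate 1. Its log2 fold change went from 0.60 to 0.39 without ICOS KO replicate 2 and to 0.17 on removing the length and GC trend. With the length and GC trend removed, 38 of 53 were positive and the median was 0.17. Most messages of these genes lack a poly(A) tail. The RNA of these libraries also differed in composition. The mitochondrial share of counts was 0.263% to 0.422% in WT and 0.329% to 0.616% in ICOS KO, and the nuclear RNA Malat1 stood at 610 to 996 CPM in WT and at 811 to 1687 CPM in ICOS KO. ICOS KO replicate 2 had the highest mitochondrial share, the highest Malat1 and the highest summed level of the replication-dependent histone genes (2359 CPM, against 1508 and 1787 in replicates 1 and 3 and 1280 to 1758 in WT). The ranges of mitochondrial share and of Malat1 overlapped between genotypes. The part of RNA composition in the histone and macroH2A values was not tested.

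**Figure D3:**
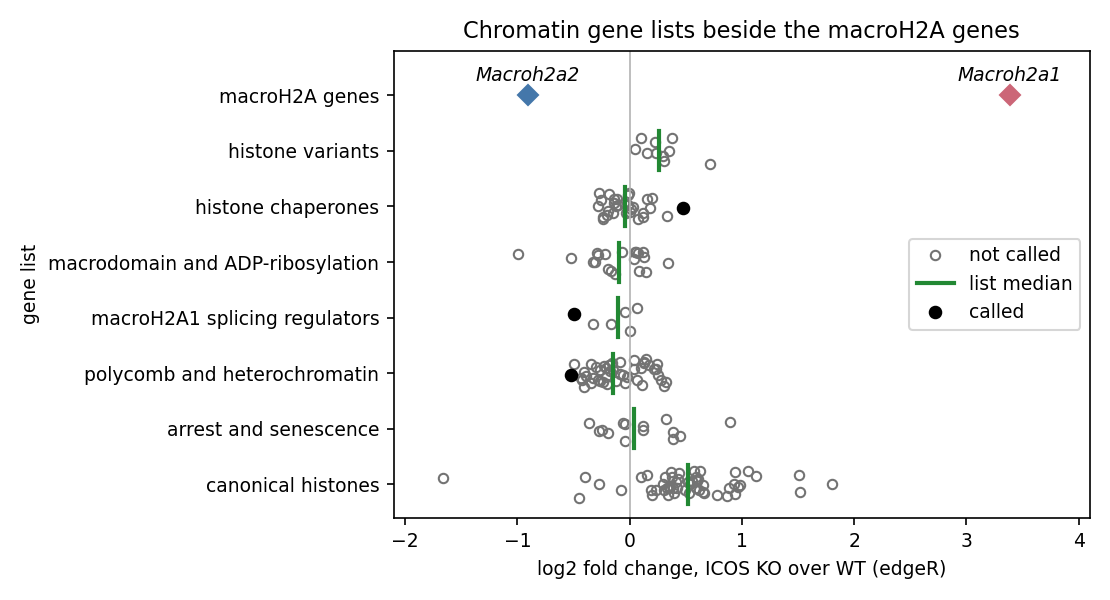
Log2 fold changes (ICOS KO over WT, edgeR) of the macroH2A genes (diamonds) and of the tested genes in 7 lists; filled points are called genes, open points are not called, green lines are list medians, and vertical positions within a list are arbitrary. The 3 called list genes lie between -0.52 and 0.47, while Macroh2a1 lies at 3.39 and Macroh2a2 at -0.91.

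Chaperones place histones into nucleosomes and take them out. Of 30 tested chaperone and exchange factor genes, 1 rose and none fell (3.33% called, near the 3.47% of all tested genes). The median log2 fold change was -0.04, or 0.06 on removing the length and GC trend. The rise was that of Dnajc9, a co-chaperone of histones H3 and H4, which had 462, 447 and 505 CPM in the WT libraries against 633, 639 and 688 CPM in those of ICOS KO. Its groups did not overlap, as in 24.4% of all tested genes, and its log2 fold change was 0.47 ± 0.09 (adjusted p from edgeR 0.0113). Factors tied to macroH2A were not called. Atrx, a remodeller that keeps macroH2A off chromatin, stood at 124 ± 4.14 and 114 ± 13.1 CPM (SD of 3 libraries each; adjusted p from edgeR 0.582), and Hells, the remodeller LSH, at 74.8 ± 3.65 and 78.8 ± 6.39 CPM (adjusted p from edgeR 0.733). The FACT subunit genes Supt16 (179 ± 4.53 and 172 ± 12.9 CPM; adjusted p from edgeR 0.794) and Ssrp1 (410 ± 18.1 and 349 ± 33.6 CPM; adjusted p from edgeR 0.213) were also not called. These 4 genes were named after their values were seen. The call of Dnajc9 was lost without WT replicate 1 (0.0794), WT replicate 2 (0.113) or ICOS KO replicate 3 (0.0895).

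Proteins with macrodomains and enzymes of ADP-ribosylation share their ligand with macroH2A1.1. Of 20 tested, edgeR called none and 3 had an unadjusted p under 0.05 (20.0% of all genes), while DESeq2 called 1 (6.79% of all) and limma voom none. The median log2 fold change was -0.10, or 0.01 on removing the length and GC trend. Parp12, an ADP-ribosyltransferase induced by interferon, had the smallest p and had 17.8, 14.3 and 16.7 CPM in the WT libraries against 14.1, 5.34 and 4.90 CPM in those of ICOS KO (adjusted p from edgeR 0.146). Its ICOS KO replicate 1 lay just below the WT libraries and the other 2 far below, and without it the log2 fold change went from -0.99 to -1.66 (adjusted p = 0.00164). DESeq2 also called it lower (adjusted p = 0.0449). Parp1, the main nuclear enzyme that makes poly(ADP-ribose), stood at 182 ± 20.9 and 150.4 ± 18.4 CPM (SD of 3 libraries each; adjusted p from edgeR 0.22), a gene named after its values were seen.

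The choice between the macroH2A1 exons is steered by RNA-binding proteins, of which 6 were tested. Of these, 1 fell and none rose (16.7% called, against 3.47% of all tested genes), a share set by 1 gene. The median log2 fold change was -0.10, or 0.02 on removing the length and GC trend. Mbnl2, a muscleblind splicing factor, fell from 64.3, 67.9 and 59.0 CPM to 46.0, 41.1 and 48.7 CPM. Its log2 fold change was -0.49 ± 0.12 (adjusted p from edgeR 0.0397). Its groups did not overlap, as in 24.4% of all tested genes. Its call was lost in 5 of 15 alternatives: without WT replicate 1, WT replicate 2, either of ICOS KO replicates 2 and 3 (the highest adjusted p was 0.201), and on removing the length and GC trend (0.0537). The others were not called and are given after their values were seen. Qk, whose protein favours the macroH2A1.1 exon, stood at 9.76 ± 0.90 and 7.79 ± 2.32 CPM (SD of 3 libraries each; adjusted p from edgeR 0.498). Mbnl1 stood at 213 ± 4.17 and 214 ± 26.7 CPM (adjusted p from edgeR 0.979), and Ptbp1 at 376 ± 22.0 and 335 ± 42.6 CPM (adjusted p from edgeR 0.404). The helicase genes Ddx5 (522 ± 26.6 and 508 ± 9.35 CPM; adjusted p from edgeR 0.836) and Ddx17 (41.7 ± 4.75 and 43.6 ± 10.3 CPM; adjusted p from edgeR 0.867) had log2 fold changes of -0.04 and 0.06.

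Of 45 Polycomb and heterochromatin genes, 1 fell and none rose (2.22% called, against 3.47% of all tested genes). The median log2 fold change was -0.15. The fall was that of Setdb1, a methyltransferase of histone H3 lysine 9, from 39.2, 39.1 and 35.5 CPM to 27.5, 27.0 and 24.8 CPM, with a log2 fold change of -0.52 ± 0.13 and an edgeR adjusted p of 0.0485. Its groups did not overlap, as in 24.4% of all tested genes. Yet 9 of 15 alternatives lost the call, with adjusted p up to 0.212. These were every fit that left out 1 library, except that without ICOS KO replicate 1. The others were those with upper-quartile scaling, limma voom, no filter or the length and GC trend removed. With that trend removed the median of the list was 0.01. Ezh2, the main methyltransferase of Polycomb repressive complex 2, stood at 93.2 ± 4.98 and 108 ± 6.30 CPM (SD of 3 libraries each; adjusted p from edgeR 0.256) and was named after its values were seen.

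Senescence is a lasting cell cycle arrest, and none of 14 tested arrest and senescence genes was called by edgeR. Of the 14, 5 had an unadjusted p under 0.05 (20.0% of all genes), DESeq2 called 2 higher (3.03% of all) and limma voom none. Of the 16 listed genes, Cdkn2a and Hmga2 did not pass the filter on low counts and were not tested. Cdkn2d, the cell cycle inhibitor p19-INK4D, had the smallest p and stood at 221 ± 10.2 and 289 ± 27.1 CPM (SD of 3 libraries each; adjusted p from edgeR 0.0581). It was called higher with upper-quartile scaling, by DESeq2, with the filter at 5 CPM, on removing the length and GC trend and without ICOS KO replicate 1, and its adjusted p was up to 0.267 in the others. Cdkn1a, the gene of the inhibitor p21, stood at 444 ± 27.4 and 431 ± 57.6 CPM (adjusted p from edgeR 0.861). Lmnb1, lamin B1, which is lost in many senescent cells, stood at 227 ± 4.99 and 191 ± 33.7 CPM (adjusted p from edgeR 0.278). The last 2 were named after their values were seen.

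Genes on the same stretch of chromosome were examined next. Of 41 tested genes within 2 Mb on either side of Macroh2a1, edgeR called none, where 3.47% of all tested genes were called. At that share few calls would be expected among 41 genes, so little can be read from this. DESeq2 called 1 of the 41 (6.79% of all tested genes) and limma voom none (3.09% of all). Their median log2 fold change was -0.01, within a range of -1.14 to 1.07, and 7 had an unadjusted p under 0.05, against 20.0% of all tested genes. Groups did not overlap for 10 of the 41, a share near the 24.4% of all tested genes. On the side of higher coordinates only Tifab, Il9, Tgfbi, Smad5 and Hnrnpa0 were tested within 2 Mb. The nearest was Tifab, an inhibitor of TRAF6 signalling, 37.3 kb away. It had 5.24, 2.37 and 3.34 CPM in the WT libraries against 1.16, 2.10 and 1.71 CPM in those of ICOS KO (adjusted p from edgeR 0.161). Il9, the gene of the ILC2 growth cytokine interleukin-9, lies 343 kb away and stood at 73.3 ± 17.6 and 62.3 ± 11.6 CPM (SD of 3 libraries each; adjusted p from edgeR 0.481). Il9 was called lower after removal of the length and GC trend, at a log2 fold change of -0.61 (adjusted p = 0.0235). Tgfbi, a matrix protein gene, was at 1.30 ± 0.43 and 0.94 ± 0.23 CPM. On the side of lower coordinates the nearest was Pcbd2, a recycling enzyme of tetrahydrobiopterin, 297 kb away. It had 18.3, 18.7 and 19.9 CPM in the WT libraries against 23.7, 39.8 and 27.8 CPM in those of ICOS KO (adjusted p from edgeR 0.0693), with replicate 2 the highest. It was called higher by DESeq2 (adjusted p = 0.0162) and without ICOS KO replicate 1 (0.0159). Its log2 fold change of 0.68 went to 0.45 without ICOS KO replicate 2 (0.227) and to 0.32 on removing the length and GC trend (0.305). Txndc15 and B230219D22Rik, the next on that side, had edgeR adjusted p of 0.468 and 0.697. The overlapping antisense gene Gm47071 stood at 2.82 and 2.67 CPM in the means of WT and ICOS KO, with a log2 fold change of -0.08 and overlapping groups. Within 5 Mb on either side 2 of 71 genes were called, named here after their values were seen. Gadd45g, a stress-induced gene, rose from 127 ± 12.2 to 340 ± 53.5 CPM. S1pr3, a receptor for sphingosine phosphate, fell from 4.04, 6.20 and 0.66 CPM to 0 counts in ICOS KO replicates 1 and 2 and 0.15 CPM in replicate 3.

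**Figure D4:**
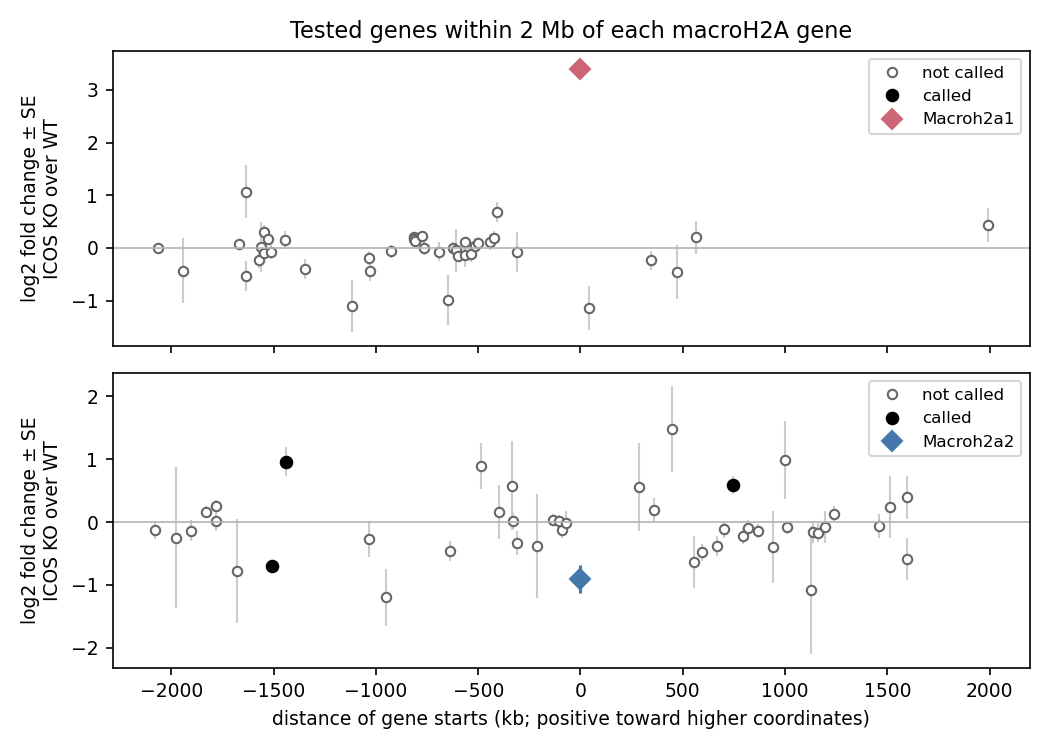
Log2 fold change ± SE (ICOS KO over WT, edgeR) of tested genes within 2 Mb of Macroh2a1 (upper panel) and Macroh2a2 (lower panel) against the distance between gene starts in kb; diamonds are the macroH2A genes, filled points are called genes and open points are not called. Macroh2a1 lies at 3.39 and its tested neighbours between -1.14 and 1.07.

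Around Macroh2a2, 3 of 45 tested genes within 2 Mb were called (6.67%, against 3.47% of all tested genes), 2 higher and 1 lower, and the median log2 fold change was -0.09. Psap, the precursor of lysosomal saposins, fell, with 264 ± 16.3 CPM in WT against 162 ± 6.38 in ICOS KO (SD of 3 libraries each; adjusted p from edgeR 0.00111). Srgn, the granule proteoglycan serglycin, rose, with 769 ± 166 against 1158 ± 143 CPM (adjusted p from edgeR 0.0361), as did Vsir, the checkpoint receptor VISTA, with 10.9 ± 1.85 against 21.1 ± 6.16 CPM (adjusted p from edgeR 0.0393). The calls of Srgn and Vsir were lost in 4 and 5 of 15 alternatives (adjusted p up to 0.194 and 0.187): for both without WT replicate 1, WT replicate 2 or ICOS KO replicate 2, for Srgn also without ICOS KO replicate 3, and for Vsir also without WT replicate 3 and with limma voom. The nearest genes were not called. Tysnd1, Sar1a and Ppa1, at 35.9, 45.4 and 64.5 kb, had log2 fold changes of -0.13, 0.02 and 0.03, and on the other side Gm5424, Fam241b and Tspan15 had edgeR adjusted p of 0.685, 0.587 and 0.251. Aifm2, which overlaps the 3′ end of Macroh2a2, stood at 17.0 and 16.9 CPM in the means of WT and ICOS KO, a log2 fold change of -0.01.

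Genes were also ranked by the Pearson correlation of their log2 CPM with that of Macroh2a1 over the 6 libraries. Ranked were 9293 genes that reached 5 CPM in the genotype where they were higher. Predicted genes, pseudogenes and immunoglobulin segments were left out. Since 3 libraries share each genotype, the correlation mostly picks genes with tight replicates and a gap between genotypes. The 5 most alike were Mras, Ubash3a, Pkp3, Prkcq and Bscl2, with r from 0.994 to 0.996. Ubash3a, a phosphatase-like regulator of T cell receptor signalling, stood at 16.1 to 18.0 CPM in WT and 35.01 to 37.6 CPM in ICOS KO. Prkcq, the kinase PKC-theta, stood at 32.7 to 35.4 and 60.9 to 65.7 CPM, and Mras, a small GTPase, at 36.0 to 38.2 and 72.1 to 80.1 CPM. Bscl2, the gene of the lipid droplet protein seipin, moved only from 165 ± 1.199 to 179 ± 0.53 CPM (SD, n = 3 each), so a high r did not mean a large difference. The 5 most opposite were Glo1, Plscr1, Plscr4, Csf2 and Tpsb2, with r from -0.997 to -0.996. Csf2, the gene of the cytokine GM-CSF, stood at 500 to 523 CPM in WT and 146 to 166 CPM in ICOS KO, and Plscr4, a phospholipid scramblase, at 6.05 to 6.71 and 1.61 to 1.88 CPM. Glo1, which detoxifies methylglyoxal, stood at 602 to 620 and 230 to 256 CPM. Of the 5 most alike, none moved as far upward as Macroh2a1. For Macroh2a2, the most alike were Ccr2, Coro1b and Cd63 (r from 0.988 to 0.995), and the most opposite Zgpat, Pkmyt1 and Cmas (r from -0.989 to -0.987). The r between Macroh2a1 and Macroh2a2 was -0.95. Their groups separated in opposite directions, so a strongly negative r follows from the genotypes and is not particular to the pair. The r of Icos with Macroh2a1 was -0.988, and 20 of the ranked genes had an r with Macroh2a1 under -0.99.

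**Figure D5:**
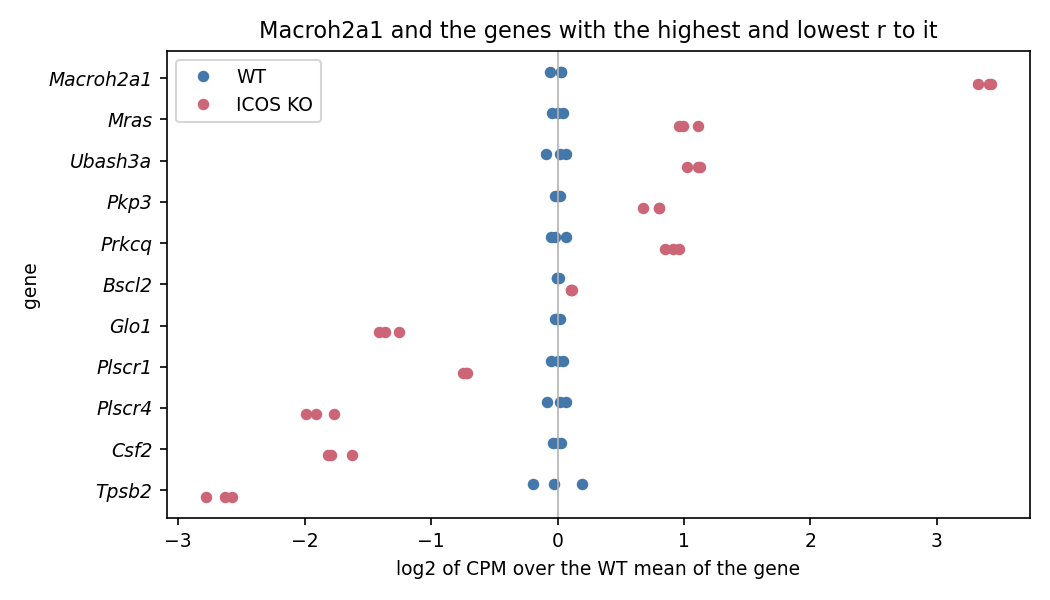
Level of Macroh2a1 and of the 5 genes with the highest and the 5 with the lowest r to it in each library, as log2 of CPM over the WT mean of the same gene (x axis); points are libraries, with genotypes by colour. The choice by r favours genes that separate the genotypes. All 10 do, by as little as about 0.11 for Bscl2 and as much as -2.66 for Tpsb2. Of the 5 with the highest r, none moves upward as far as Macroh2a1.

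Markers of other cell types were counted, since macroH2A genes are expressed in many tissues. Calls are those of edgeR, which over all tested genes called 1.34% higher and 2.13% lower in ICOS KO. Of 8 tested mast cell and basophil markers 7 fell, while Kit had means of 20.3 CPM in WT and 20.2 CPM in ICOS KO. The summed level of 12 detected markers was 348 to 403 CPM in WT and 57.7 to 70.4 CPM in ICOS KO. Most of the WT sum came from Tpsab1, with a mean of 249 CPM. T cell markers summed to 245 to 300 CPM in WT and 367 to 469 CPM in ICOS KO, with 2 of 6 tested higher and 1 lower, and B cell markers to 1027 to 1526 and 1684 to 1702 CPM, with 1 of 6 higher. Myeloid markers summed to 114 to 166 and 71.3 to 109 CPM, with 1 of 8 tested lower. Epithelial markers summed to 104 to 207 and 75.8 to 213 CPM, with 1 of 6 higher. Of 6 endothelial and stromal markers 2 were present, and they summed to 45.4 to 55.1 and 67.5 to 70.4 CPM with none called, and erythroid markers to 4.26 to 4.73 and 6.59 to 14.1 CPM with 1 of 2 higher. No listed marker present in the table was at 0 in all 6 libraries. The part of these cells in the macroH2A values was not tested.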

How the data were processed

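The authors deposited 1 table of estimated counts, libraries in lines and genes in columns, in which 39.4% of values were not whole. The submitters' processing notes name Partek 10.0, STAR 2.7.8, DESeq2 and the build mm10. The sources used here do not give the annotation, counting method or strand setting. Counts were rounded, passed through filterByExpr, scaled by TMM and tested in edgeR 4.0.16 under R 4.3.3 (glmQLFit and glmQLFTest, robust, adjusted p of 0.05). Variation between libraries beyond counting (edgeR's common coefficient of variation) was 18.5%, and it may be technical. An SE is the log2 fold change divided by the root of its F. Totals of 13738062 to 18736474 limit the precision.

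Alternatives were upper-quartile, RLE and library-total scaling, DESeq2 1.42.0, voom of limma 3.58.1, no filter, a minimum of 5 CPM in 3 libraries, a replicate block, removal of each library's trend with length and GC, and omission of each library. Pairs of libraries had r of 0.948 to 0.979, and none was a copy of another (chi-square per degree of freedom at least 8.85). The fit was tested on simulated data. Sequences were aligned with Biopython 1.88.

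The members and gene lists were chosen with earlier results of these data known. Named by rule were the members, Icos, H2az1, H2ax, H3f3b, the called genes of each list (at most 4, or else the one of smallest p), the 3 nearest tested genes per side, called genes within 2 Mb and those ranked by r. GENCODE M21 placed 17691 of 18122 genes by symbol and 219 by an older symbol, and RefSeq placed 134.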

Additional observations from a re-analysis of the deposited data

How the results depend on the processing

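The log2 fold change of Macroh2a1 was positive in all 15 alternatives, from 3.32 (library totals alone) to 3.45 (length and GC trend removed), and that of Macroh2a2 negative in all, from -0.99 to -0.81. These 2 values of Macroh2a1 moved beyond the spread between replicates, though by less than the SE of the main fit (0.10). The median log2 fold change of all tested genes moved in the same directions. It went from -0.0035 to -0.068 with library totals alone and to 0.045 with the length and GC trend removed. The cause of the move of Macroh2a1 with that trend removed was not tested. Without each library in turn Macroh2a1 stayed between 3.36 and 3.42. The 475 genes called became 929 with DESeq2 and 1070 with the replicate block, and 208 to 1260 without 1 library (211, 208 and 414 without WT replicates 1 to 3, 1260, 343 and 221 without ICOS KO replicates 1 to 3). The 3 called genes of the 6 chromatin lists became 7 with DESeq2 and 9 with the block, and 0 to 13 without 1 library. The 0 called replication-dependent histone genes became 1 with upper-quartile scaling, RLE scaling, DESeq2 or the filter at 5 CPM, 3 with the block, and 0 to 1 without 1 library. The 0 called genes within 2 Mb of Macroh2a1 became 1 with DESeq2 or the block, 2 with the length and GC trend removed, 0 to 3 without 1 library, and 2 within 5 Mb. The sign of 2 uncalled genes near Macroh2a2 changed. Sar1a had -0.048 with library totals alone, -0.020 without WT replicate 1 and -0.049 without ICOS KO replicate 1. Ppa1 had -0.031 with library totals alone, -0.048 after removal of the length and GC trend, and -0.0011 to 0.080 without 1 library, the lowest without ICOS KO replicate 2. The replicate numbers are not shown to pair the libraries: same-numbered libraries correlated by 0.064 to 0.087 in their deviations from the group means, so the replicate block is given only here, as counts. Depth limits the precision of Macroh2a2, which had 68.0 to 207.3 estimated counts per library.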
